A study of Homo sapiens with 6 samples.

Results

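The mitochondrial ribosomal protein genes are the nuclear genes whose symbols start with MRPL (large subunit) or MRPS (small subunit) followed by a number and, for some, a letter A, B or C. They were chosen by symbol alone, which gave 77 of the 50868 genes in the files, 48 of the large and 29 of the small subunit. All 77 had enough reads to be tested. Symbols with a pseudogene suffix were left out. Each member had between 64 and 1806 reads in a library, with a median of 426.

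Expression was measured by RNA sequencing of total RNA from CUTLL1, a long-established line of human T-ALL (T-cell acute lymphoblastic leukaemia). Cells carried a short hairpin RNA (shRNA) against AURKB, the mitotic Aurora B kinase (shAURKB, 3 libraries), or a control shRNA named for GFP (shGFP, 3 libraries). Both arms received their shRNA and were kept in puromycin for 48 h before RNA was taken. The labels call the cells infected in the protocol and transfected in the characteristics. The labels name 1 shRNA per arm and a single cell line, so effects of the hairpin and of the lowered gene cannot be told apart, and p-values measure the spread between these cultures of 1 line.

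Mitochondria hold their own ribosome, which translates the few membrane subunits of the respiratory chain that mitochondrial DNA encodes. Its RNAs come from mitochondrial DNA, while all of its proteins are encoded in the nucleus, made in the cytoplasm and imported. Some of these proteins have a counterpart in the bacterial ribosome and others arose in mitochondria. The small subunit binds and decodes the mRNA, and the large subunit joins the amino acids and is anchored at the inner membrane.

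Library totals ran from 10154187 to 11922979 counts. The target was lower in the knockdown arm: AURKB stood at 100.4, 96.95 and 107 CPM (counts scaled to a common library size) in shGFP replicates 1 to 3. It stood at 39.8, 43.9 and 36.03 CPM in shAURKB replicates 1 to 3, which left 39.3% of the control mean (log2 fold change -1.35 ± 0.08 SE, edgeR adjusted p = 2.54e-04). Of 10 T-ALL markers, 9 or 10 had reads in each library, and they summed to 2596 to 3096 CPM. Markers of B cells summed to 15.8 to 22.6 CPM and those of myeloid cells to 0.185 to 0.587 CPM. Of 10 fibroblast and epithelial markers, 7 had reads in shGFP replicate 1, with a sum of 29.1 CPM, and 3 to 5 in the other libraries, with sums of 1.85 to 2.58 CPM. The part of such RNA in the results below was not tested. In bulk RNA, fewer cells of a kind and less RNA per cell cannot be told apart.

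With AURKB shRNA, 25 of the 77 mitochondrial ribosomal protein genes were higher and none was lower at an edgeR adjusted p below 0.05, and 52 were not called. Among all 14818 genes tested, 12.5% were higher and 10.9% lower. Among the 10448 genes that reached the control level of the weakest member (8.02 CPM), 16.9% were higher and 12% lower. The 25 were 14 of 48 large-subunit and 11 of 29 small-subunit genes. At an unadjusted edgeR p below 0.05 there were 42 members in all, and none of these had an estimate below 0. In either direction, 5489 of the 14818 genes tested and 4507 of the 10448 passed this threshold as well. The estimate was above 0 for 67 of the 77, namely 46 of 48 in the large and 21 of 29 in the small subunit. It was above 0 for 7322 of the 14818 and for 5750 of the 10448. The changes were small. The median log2 fold change was 0.22 in the large subunit (1.16-fold) and 0.15 in the small subunit (1.11-fold), against -0.0042 for all genes tested. For the 10448 genes that reached the level of the weakest member, the median was 0.031. The small-subunit median was 0.091 without shAURKB replicate 3 and 0.098 with upper-quartile scaling.

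**Figure D1:**
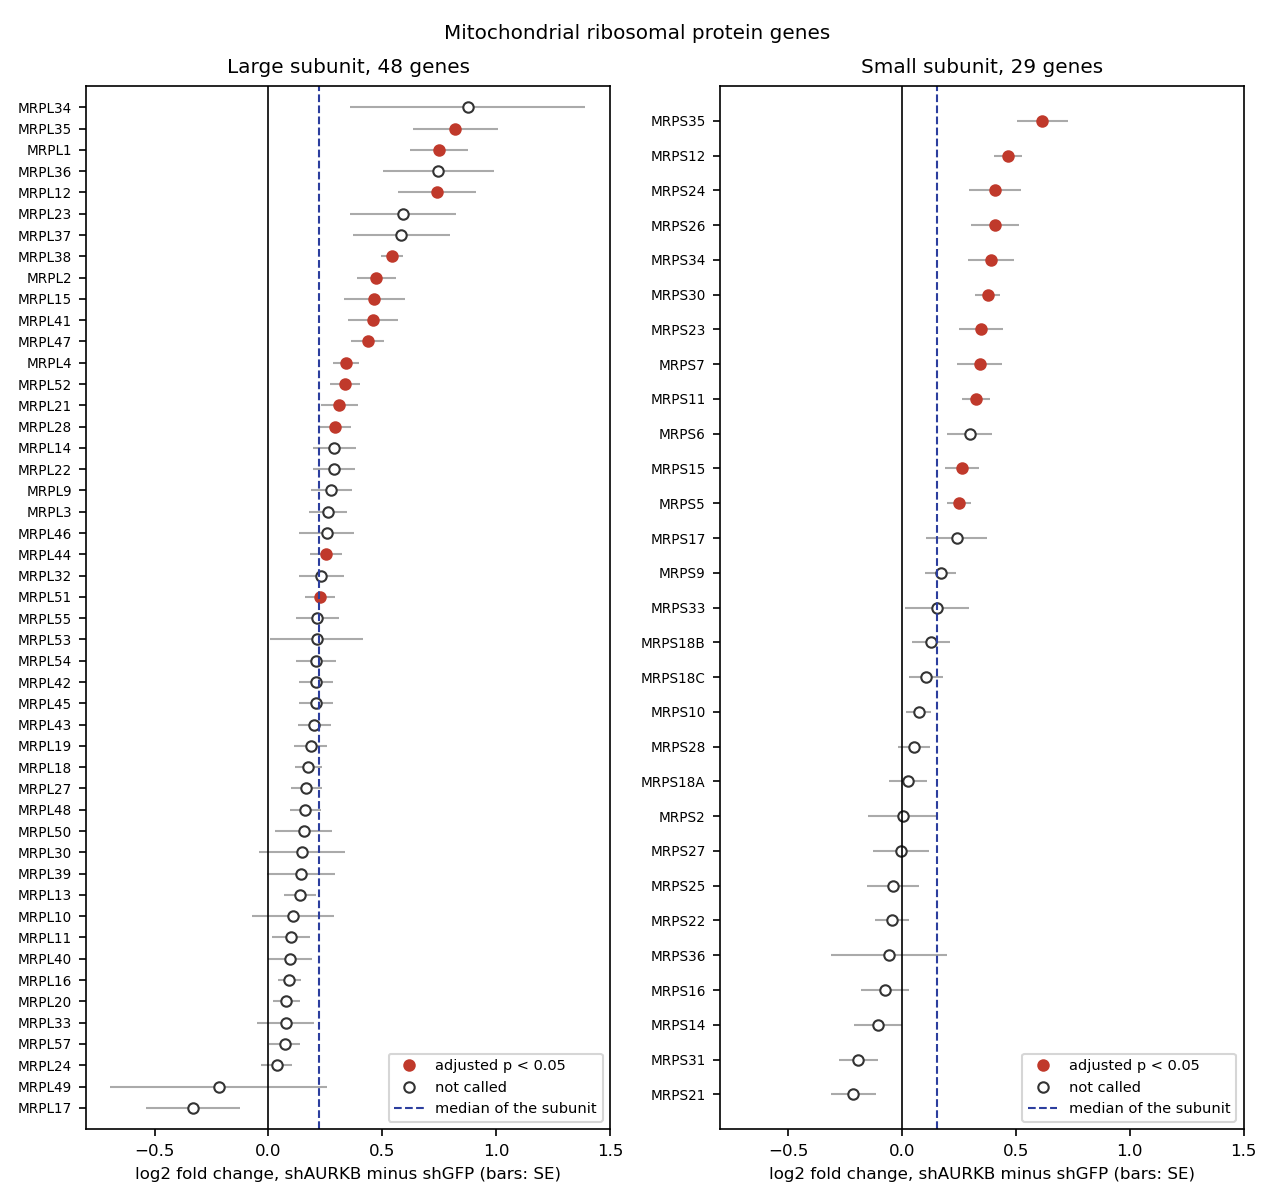
Log2 fold change of each of the 77 genes, shAURKB minus shGFP, with SE bars, for the large (left) and small (right) subunit. Filled points passed an adjusted p of 0.05 (14 and 11 genes), all to the right of 0, and the dashed lines mark the subunit medians of 0.22 and 0.15.

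The count of calls depended on the scaling and on single libraries. It was 14 with upper-quartile scaling, 16 without shGFP replicate 1, 15 without shGFP replicate 2, 14 without shAURKB replicate 1, 14 without shAURKB replicate 2 and 16 without shAURKB replicate 3. Leaving out shGFP replicate 3 gave 20. The large-subunit count was 8 without shGFP replicate 1, shGFP replicate 2 or shAURKB replicate 1 and 9 without shAURKB replicate 2. The small-subunit count was 7 without shGFP replicate 2, 6 without shGFP replicate 3 or shAURKB replicate 1 and 5 without shAURKB replicate 2 or 3. No called member changed direction under any alternative that was run. The calls of 10 members held under all of these alternatives: MRPL1, MRPL2, MRPL4, MRPL38, MRPL47, MRPL52, MRPS11, MRPS12, MRPS30 and MRPS35.

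Summed over the 48 large-subunit genes, the level of the controls, in the order of replicates 1 to 3, was 1893, 1972 and 2052 CPM. In the shAURKB replicates it was 2380.2, 2432 and 2418 CPM. The 3 knockdown libraries lay above all controls, and their mean was 22.2% higher. The 29 small-subunit genes summed to 1391, 1354 and 1350 CPM in the controls and 1546, 1551 and 1616 CPM in the knockdown arm, again without overlap, and the mean was 15.1% higher. The large sum was 1.36, 1.46 and 1.52 times the small one in the controls and 1.54, 1.57 and 1.496 times with AURKB shRNA. The arms overlapped in this ratio, so the larger rise of the large-subunit sum was not separated from the spread among the controls. The members together took 0.339% ± 0.00586 (SD, n = 3) of all reads in the controls and 0.390% ± 0.00451 (SD, n = 3) with AURKB shRNA. This share is of unscaled counts and was 15.1% higher, whereas the scaled CPM of all members summed to 19.3% more.

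**Figure D2:**
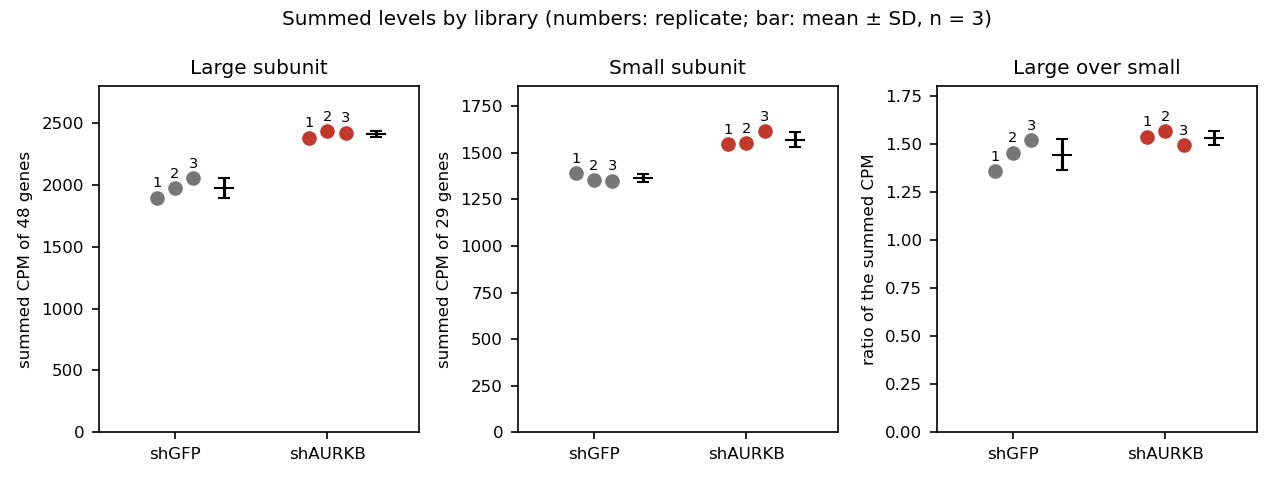
Summed TMM-scaled CPM of the large-subunit genes (left) and the small-subunit genes (middle) and the ratio of the sums (right), 1 point per library labelled by replicate, with mean ± SD (n = 3). Both sums are higher in all 3 shAURKB libraries, whereas the ratio runs from 1.36 to 1.52 in shGFP and from 1.496 to 1.57 in shAURKB.

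Among single members, the 3 libraries of an arm did not overlap for 44, of which 43 were higher with AURKB shRNA and 1 (MRPS21) was lower. Of all tested genes, 21.7% lay apart in the higher direction and 20.9% in the lower, and of those at or above the level of the weakest member 27.7% and 20.7%. The higher ones were 30 of 48 large-subunit and 13 of 29 small-subunit genes.

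Per length, the members differed widely in level. In the controls the authors' FPKM ran from 1.63 ± 0.146 for MRPL55, the gene of a protein in the central protuberance of the large subunit, to 58.9 ± 14.7 for MRPL12 (mean ± SD, n = 3), with a median of 9.61 over the 77 genes. MRPL12 encodes the protein of the stalk that recruits translation factors. Next came MRPL57 of the large subunit and MRPS26 of the small subunit, both at 41.8 FPKM, and MRPS10 at 31.4 FPKM. The lowest small-subunit gene was MRPS22, a mitochondria-specific subunit, at 2.66 FPKM. A high control level did not go with a call in every case. MRPL57 stood at 93.8, 87.9 and 95.9 CPM in the controls and 92.0, 106 and 94.1 CPM with AURKB shRNA (log2 fold change 0.07 ± 0.07 SE, edgeR adjusted p = 0.499), with overlapping arms. MRPS10 stood at 65.4, 62.9 and 67.3 CPM and then 68.6, 66.4 and 70.7 CPM (0.07 ± 0.05, adjusted p = 0.38), also with overlap. MRPL55 stood at 14.8, 17.2 and 17.6 CPM and then 19.6, 18.3 and 19.6 CPM (0.21 ± 0.09, adjusted p = 0.148), without overlap but not called. MRPS22 had 22.2, 22.9 and 22.6 CPM in the controls and 20.5, 23.1 and 22.1 CPM with AURKB shRNA (-0.04 ± 0.08, adjusted p = 0.711).

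In the large subunit the called member with the smallest p was MRPL38 (chr17:75898643-75905413, minus strand, GRCh38), a mitochondria-specific protein of the central protuberance. The 3 controls were at 67.0, 67.0 and 68.9 CPM and the 3 knockdown libraries at 99.1, 95.6 and 101 CPM, here and below in the order of replicates 1 to 3. The gap between the arms was much wider than the spread within either, and the log2 fold change was 0.54 ± 0.05 SE (1.46-fold, edgeR adjusted p = 7.28e-04). MRPL1 (chr4:77862520-77952790, plus strand), the protein of the L1 stalk by which used tRNA leaves, stood at 20.5, 18.1 and 18.4 CPM in the controls. It reached 31.5, 27.1 and 37.3 CPM with AURKB shRNA, a rise of 0.75 ± 0.13 (adjusted p = 0.0074). The knockdown libraries of MRPL1 differed among themselves by 1.37-fold, yet the lowest was above the highest control. MRPL2 (chr6:43054029-43059806, minus strand), whose bacterial counterpart sits near the peptidyl transferase centre, went from 18.4, 20.7 and 20.3 CPM to 27.8, 29.4 and 25.4 CPM (0.47 ± 0.09, adjusted p = 0.01).

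MRPL47, MRPL4 and MRPL52 made up the rest of the large-subunit genes called under every alternative. MRPL47, a protein near the exit of the peptide tunnel, was at 30.9, 29.2 and 31.5 CPM in the controls and 43.3, 38.3 and 42.3 CPM with AURKB shRNA (log2 fold change 0.44 ± 0.07 SE, edgeR adjusted p = 0.0074). MRPL4, which lines the tunnel, was at 78.6, 71.8 and 79.3 CPM and then 96.7, 94.9 and 99.8 CPM (0.34 ± 0.06, adjusted p = 0.0072). Neither gene had overlapping arms. The mitochondria-specific MRPL52 was at 28.03, 27.5 and 26.8 CPM and then 33.5, 34.3 and 36.03 CPM (0.34 ± 0.06, adjusted p = 0.0118). The other called large-subunit genes, besides MRPL12 and MRPL35 below, were MRPL15, MRPL21, MRPL28, MRPL41, MRPL44 and MRPL51, with log2 fold changes from 0.23 (MRPL51) to 0.47 (MRPL15), and each lost its call under at least 1 alternative.

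In the small subunit the largest rise was that of MRPS35 (chr12:27710773-27756295, plus strand), a mitochondria-specific protein. It stood at 57.1, 57.6 and 43.5 CPM in the controls and at 84.8, 77.5 and 79.9 CPM with AURKB shRNA (log2 fold change 0.62 ± 0.11 SE, 1.53-fold, edgeR adjusted p = 0.0096). The third control was the lowest, and all knockdown libraries were above all controls. MRPS12 (chr19:38930548-38933162, plus strand), the protein at the decoding centre, stood at 41.4, 45.3 and 43.6 CPM and then 58.0, 59.5 and 62.3 CPM (0.46 ± 0.06, adjusted p = 0.0031). MRPS11, a protein of the platform, had 29.3, 29.3 and 28.01 CPM in the controls and 36.2, 35.98 and 36.2 CPM with AURKB shRNA (0.32 ± 0.06, adjusted p = 0.0104). In MRPS11 the knockdown libraries were almost identical to each other.

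MRPS24, MRPS26 and MRPS34 were also among the 5 largest called rises of the small subunit, at 0.41 ± 0.11, 0.41 ± 0.11 and 0.39 ± 0.10 (log2 fold change ± SE; edgeR adjusted p = 0.0404, 0.0341 and 0.0337). MRPS24, at the entry of the mRNA channel, went from 20.9, 23.9 and 26.0 CPM to 32.7, 33.6 and 27.7 CPM. MRPS26 went from 51.9, 38.9 and 48.4 CPM to 62.0, 63.6 and 59.2 CPM. MRPS34 went from 102, 87.5 and 96.7 CPM to 111, 120 and 143 CPM. None of these genes had overlapping arms, but each lost its call under 6 or 7 of the 11 alternatives listed in the processing account. The remaining called small-subunit genes were MRPS5, MRPS7, MRPS15, MRPS23 and MRPS30, the last of which is described next. Of the 11 alternatives, MRPS5 kept its call under 10, MRPS23 under 5, and MRPS7 and MRPS15 under 4 each.

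The MRPS symbol does not always give the subunit in which the protein sits. MRPS30 and MRPS18A are found in the large subunit of the assembled ribosome, and MRPS36 was later assigned to the 2-oxoglutarate dehydrogenase complex, where RefSeq lists the gene as KGD4. MRPS30 stood at 60.4, 58.7 and 60.4 CPM in the controls and 74.4, 77.3 and 81.1 CPM with AURKB shRNA (log2 fold change 0.37 ± 0.05 SE, edgeR adjusted p = 0.0043), without overlap. MRPS18A stood at 38.7, 32.4 and 33.5 CPM and then 36.7, 35.01 and 34.7 CPM (0.02 ± 0.08, adjusted p = 0.865). MRPS36 stood at 11.04, 13.3 and 13.6 CPM and then 17.3, 8.78 and 10.2 CPM (-0.06 ± 0.25, adjusted p = 0.893). For MRPS36 the first knockdown library was the highest of all 6 and the second the lowest. With MRPS30 and MRPS18A counted with the large subunit and MRPS36 left out, 15 of 50 large-subunit and 10 of 26 small-subunit genes were higher.

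MRPS18A, MRPS18B and MRPS18C are 3 related genes whose proteins share 1 bacterial ancestor but occupy different sites in the ribosome, MRPS18C being the one in the ancestral position. None of them was called. MRPS18B had 68.3, 64.5 and 56.2 CPM in the controls and 67.1, 66.8 and 72.5 CPM with AURKB shRNA (log2 fold change 0.13 ± 0.08 SE, edgeR adjusted p = 0.312). MRPS18C had 33.3, 29.5 and 31.2 CPM and then 33.1, 32.4 and 35.5 CPM (0.10 ± 0.08, adjusted p = 0.368). The arms overlapped for all 3.

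Grouped by whether the bacterial ribosome has a protein in the same position, 15 of the 46 members with such a counterpart and 10 of the 31 counted as mitochondria-specific were higher, and none in either class was lower. The median log2 fold change was 0.24 and 0.21. The shares called were 32.6% and 32.3%. MRPS18A and MRPS18B, which descend from a bacterial protein but sit elsewhere, were counted among the 31. So was MRPS36, which was left out of the subunits by structure above.

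**Figure D3:**
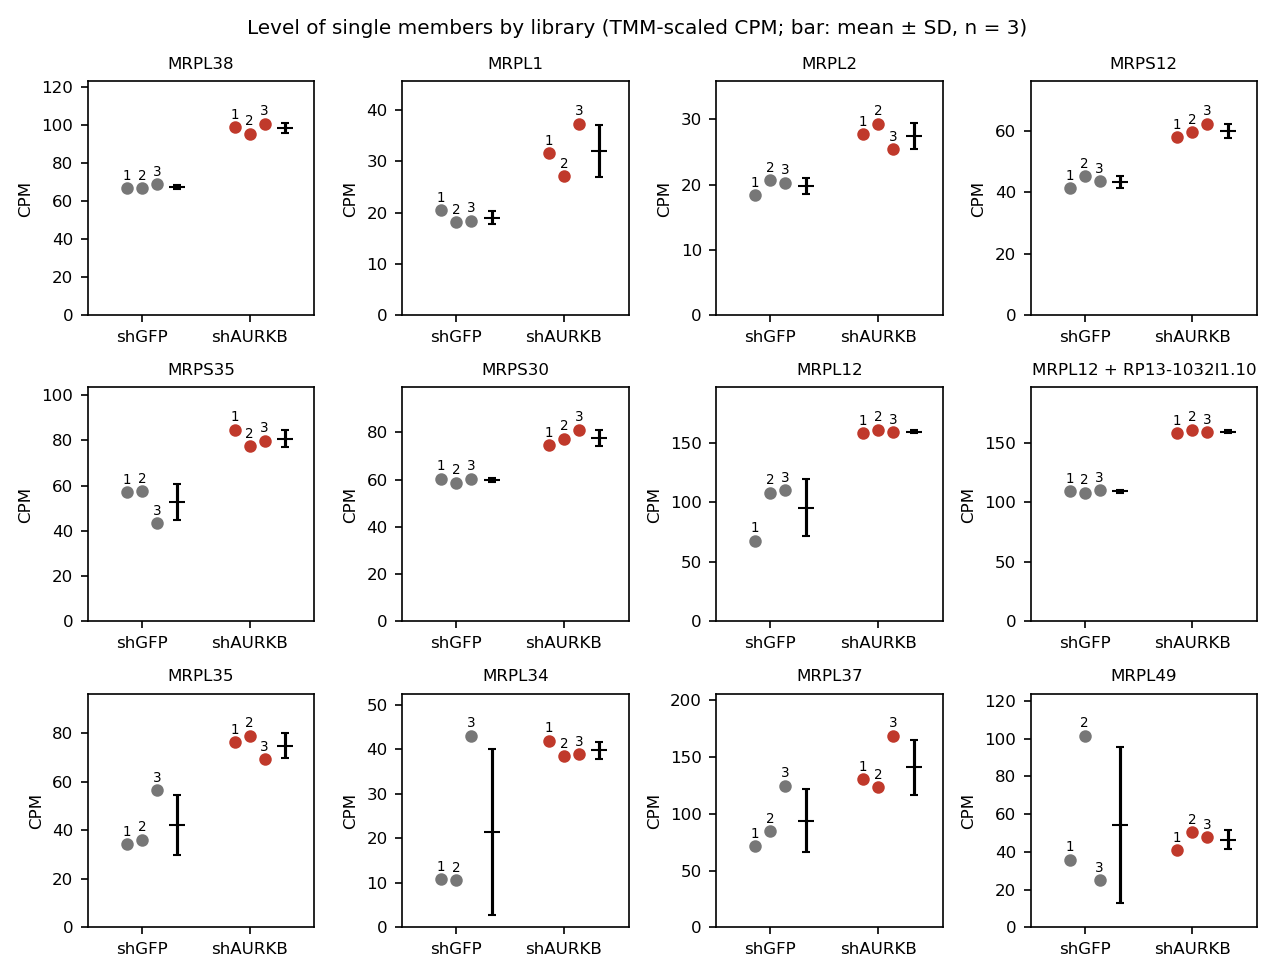
TMM-scaled CPM of single genes in each library, labelled by replicate, with mean ± SD (n = 3), each panel starting at 0. The 6 genes MRPL38, MRPL1, MRPL2, MRPS12, MRPS35 and MRPS30 lie apart between the arms, while the controls of MRPL12, MRPL35, MRPL34, MRPL37 and MRPL49 are spread out and the sum of MRPL12 with RP13-1032I1.10 is tight in both arms.

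Several large-subunit genes had a wide spread among the control libraries. The highest shGFP library was over 1.5 times the lowest for 11 members, all of the large subunit, and the highest shAURKB library for 2 (MRPL36 and MRPS36, 1.98-fold in MRPS36). The median of this ratio over the 77 genes was 1.14 in both arms. The genes shown here were picked for this spread after their values were seen.

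**Figure D4:**
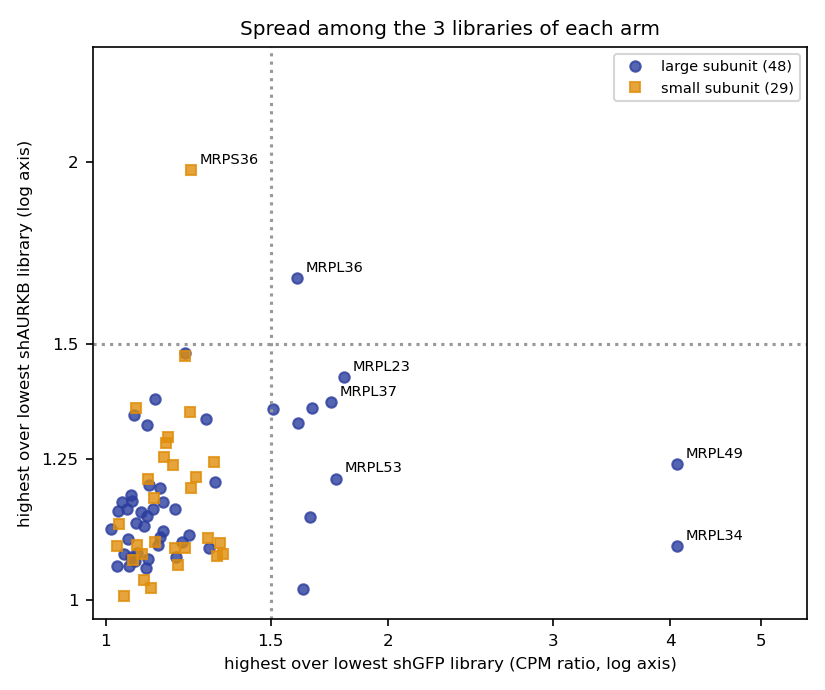
Highest over lowest library of each gene within the 3 shGFP libraries (horizontal) and the 3 shAURKB libraries (vertical), both log axes, by subunit, with dotted lines at 1.5. The 11 genes to the right of the vertical line are all of the large subunit, and MRPL34 and MRPL49 reach 4.07 in shGFP.

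MRPL34 had the largest estimate of all members but was not called. It had 115, 109 and 521 reads in the controls and 479, 395 and 410 with AURKB shRNA. The third control was at 43.0 CPM, as high as the knockdown libraries, and the other two were at 10.9 and 10.6 CPM. The log2 fold change was 0.87 ± 0.51 SE (edgeR adjusted p = 0.263) with all libraries and 1.89 (adjusted p = 6.55e-04) without shGFP replicate 3. MRPL35, called at 0.82 ± 0.19 (adjusted p = 0.0218), also had its highest control in replicate 3, at 34.3, 36.1 and 56.6 CPM, all below 76.4, 79.0 and 69.2 CPM with AURKB shRNA. Without shGFP replicate 1 its adjusted p was 0.0592, without shGFP replicate 2 0.066, without shAURKB replicate 1 0.0598 and without shAURKB replicate 2 0.066.

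MRPL37, a mitochondria-specific gene, was at 71.7, 84.9 and 125 CPM in the controls and 130, 123 and 169 CPM with AURKB shRNA. The third control again overlapped the knockdown libraries (log2 fold change 0.58 ± 0.21 SE, edgeR adjusted p = 0.0911, and 0.85 with adjusted p = 0.02 without shGFP replicate 3). It also passed with DESeq2 (adjusted p = 0.0187) and with the replicate number as a block (0.0212). MRPL23 (0.59 ± 0.23, adjusted p = 0.113) and MRPL36 (0.75 ± 0.24, adjusted p = 0.0666) were uncalled too, with overlapping arms. MRPL23 passed without shGFP replicate 3 (adjusted p = 0.0281) and MRPL36 without shAURKB replicate 3 (0.032) or with DESeq2 (0.0342).

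The lowest estimates were those of MRPL17, MRPL49, MRPS21 and MRPS31, and none was called. MRPL17 was at 61.2, 60.1 and 36.9 CPM in the controls and 48.9, 40.7 and 36.03 CPM with AURKB shRNA (log2 fold change -0.33 ± 0.21 SE, edgeR adjusted p = 0.29). Without shGFP replicate 3 the estimate was -0.53 and the adjusted p 0.0428, the only case of a member called lower in any fit that was run. MRPL49 was at 35.96, 102 and 24.95 CPM in the controls and 40.8, 50.6 and 47.9 CPM with AURKB shRNA (-0.22 ± 0.48, adjusted p = 0.778). The second control was far above the other 5 libraries, and without it the estimate was 0.61 (adjusted p = 0.0669). MRPS21 was at 21.8, 19.7 and 19.7 CPM and then 19.4, 15.99 and 17.3 CPM (-0.22 ± 0.10, adjusted p = 0.161), the one member whose knockdown libraries all lay below the controls.

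MRPL12 (chr17:81703357-81707526, plus strand) had 719, 1112 and 1333 reads in the controls and 1806, 1649 and 1673 with AURKB shRNA. Its level was 67.9, 108 and 110.1 CPM in the controls and 158, 161 and 159 CPM with AURKB shRNA (log2 fold change 0.74 ± 0.17 SE, edgeR adjusted p = 0.0223). The first control was low. A locus on the same strand that overlaps MRPL12, RP13-1032I1.10, had 441 reads in shGFP replicate 1 and none in the other 5 libraries. With both rows added together, the controls stood at 109.5, 107.9 and 110.1 CPM and the knockdown libraries at 158.1, 160.8 and 158.6 CPM. The log2 fold change was then 0.54 ± 0.04 (adjusted p = 3.69e-04), an alternative chosen after seeing the data. As deposited, MRPL12 lost its call without any 1 shAURKB library (adjusted p = 0.0571 to 0.0626).

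Other members share their locus with a second gene as well. In all, 38 of the 77 overlapped another gene that had at least 50 reads over the 6 libraries, 12 of them on the same strand, and 11 of the 25 called members were among the 38. The strand setting of the counting is not given in the sources used here, so reads of pairs on opposite strands cannot be told apart. For pairs on the same strand, such a setting would not separate the reads. MRPS5, a called gene (0.25 ± 0.05 on the log2 scale, edgeR adjusted p = 0.016), overlaps ZNF514 on the same strand, which had 209, 132 and 244 reads in the controls and 68, 72 and 40 with AURKB shRNA. MRPS5 itself had 969, 884 and 1142 reads and then 1217, 1093 and 1160, so the reads of ZNF514 fell as those of MRPS5 rose. Unlike for MRPL12, no fit of the summed rows was run. Whether the rise of MRPS5 would remain in such a sum was not tested. MRPL38 overlaps RP11-552F3.12, which had 38, 42 and 42 reads and then 82, 60 and 28. Of 67 other entries whose symbols start with MRPL or MRPS, 47 had no read and 2 were tested, the pseudogenes MRPS31P4 and MRPS31P5. Neither of the 2 was called.

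RefSeq (GRCh38.p14) gave a promoter, from 250 bases before to 50 after the gene's start, for 68 of the 77 members. It was searched on both strands for CCGGAAG, a core bound by ETS factors such as GABPA, for CACGTG, the E-box that MYC and related factors bind, and for the palindromic site of NRF1. The E-box and the NRF1 site read the same on both strands, and matches of each motif were counted separately, whether or not they overlapped. The ETS core was present in 42.6% of the members, against 23.4% of 9245 tested genes with a promoter and 12.2% of all 27305 promoters. It was as frequent in the members called higher (9 of 21) as in those not called (20 of 47). Of the 10 members called under every alternative, it was found in MRPL38, MRPL47, MRPL52 and MRPS12. It was not found in MRPL1, MRPL4, MRPS11, MRPS30 or MRPS35, and MRPL2 had no entry. The stretch around the core is shown for those with a match, as examples of its position, 30 bases each, with the core or its reverse complement in capitals.
MRPL38, chr17:75905074-75905103, minus strand, core starting 208 bases before the RefSeq start: tccaacgggcaCTTCCGGagccgggcgtct
MRPL47, chr3:179604659-179604688, minus strand, 31 bases before the start: ggcttgagacgCCGGAAGtgacgctatcgt
MRPL52, chr14:22829871-22829900, plus strand, 5 bases before the start: ggccacgcctaCTTCCGGctaccccggcta
MRPS12, chr19:38930928-38930957, plus strand, 5 bases before the start: acggatagcgcCCGGAAGaggctagaagct

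The E-box was present in 9 of 68 members (13.2%), against 12.7% of tested genes and 8.77% of all promoters. All 9 were among the 47 members not called, and none among the 21 called, a pattern seen after the values were known and not tested. The log2 fold changes of the 9 ran from -0.22 (MRPL49) to 0.75 (MRPL36), and MRPL36 and MRPL37 were called under some alternatives. The E-box is shown for MRPL36, MRPL37 and MRPL49, whose control libraries were spread out, with CACGTG in capitals.
MRPL36, chr5:1799876-1799905, minus strand, 56 bases before the start: acgtgggcacgcCACGTGaccccccccccc
MRPL37, chr1:54199985-54200014, plus strand, 170 bases before the start: tgcgcttcacctCACGTGaggattttccag
MRPL49, chr11:65121933-65121962, plus strand, 245 bases before the start: cggctCACGTGgggaaggccaggcctccca

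The NRF1 site was present in 1 member, MRPL17, against 2.78% of tested genes. A match describes these letters in this window and shows no binding. The RefSeq start can differ from the outer end of the counted gene. Of the stretches shown, those of MRPL36, MRPL37 and MRPL38 lie before the RefSeq start but inside the counted span. Those of MRPL52 and MRPS12 run across the RefSeq start, and their cores begin before it but inside the counted span.

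Many members start next to another gene on the opposite strand. A tested protein-coding gene started within 1000 bases on the other strand for 26 members. Of the 24 such neighbours that are not members themselves, TCP1, IGHMBP2, PSMA2 and FAU were higher, NCAPD2 and PTCD2 were lower and 18 were not called. These shares are near those over all genes tested (12.5% higher and 10.9% lower). In 1 pair, MRPL21 with IGHMBP2, whose starts lie 7 bases apart, both sides were called higher (log2 fold change 0.31 ± 0.08 and 0.24 ± 0.07 SE, edgeR adjusted p = 0.0336 and 0.0419). Each of them lost its call under 9 of the 11 alternatives. One pair joins the subunits: MRPL46 and MRPS11 start 34 bases apart on chromosome 15. MRPL46 was at 17.5, 19.3 and 17.4 CPM in the controls and 18.0, 22.9 and 23.8 CPM with AURKB shRNA (0.26 ± 0.12, adjusted p = 0.175), with overlapping arms, beside the called rise of MRPS11 (0.32). The 33 bases between their starts (chr15:88467420-88467452, plus strand) hold none of the 3 motifs and are shown whole because both genes start at their ends, MRPL46 to the left and MRPS11 to the right.
MRPL46 and MRPS11: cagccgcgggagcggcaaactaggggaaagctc

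The other genes of mitochondrial translation were taken as lists, whose counts are to be read against 12.5% of all tested genes higher and 10.9% lower. Of the 6 mitochondrial ribosomal proteins without an MRP symbol, 4 were higher and none lower. ICT1, a peptidyl-tRNA hydrolase built into the large subunit, had the largest rise, from 20.95, 22.2 and 21.3 CPM to 41.8, 38.6 and 43.2 CPM (log2 fold change 0.94 ± 0.07 SE, 1.92-fold, edgeR adjusted p = 5.18e-04). GADD45GIP1, another large-subunit protein, rose from 83.6, 72.7 and 81.8 CPM to 118, 114 and 119 CPM (0.56 ± 0.06, adjusted p = 0.0019). In both genes every knockdown library exceeded every control. AURKAIP1, a small-subunit protein also reported to bind the related kinase Aurora A, rose by 0.47 ± 0.07 (adjusted p = 0.0042), and PTCD3, at the mRNA entry of the small subunit, by 0.21 ± 0.04 (adjusted p = 0.0116). CHCHD1 (0.36 ± 0.11, adjusted p = 0.0506) and the GTP-binding small-subunit protein DAP3 (-0.04 ± 0.05, adjusted p = 0.634) were not called.

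Of 28 genes for assembly of the ribosome and modification of its RNA, 8 were higher and none lower, with a median of 0.13. The count was 5 without shGFP replicate 1, 5 without shGFP replicate 2 and 4 without shAURKB replicate 3. MALSU1, a factor bound to the immature large subunit, was at 17.3, 16.1 and 18.1 CPM and then 35.6, 21.6 and 31.4 CPM (log2 fold change 0.78 ± 0.18 SE, edgeR adjusted p = 0.0213). Its call was lost without any 1 control and without shAURKB replicate 1 or 3 (adjusted p = 0.0524 to 0.0662). MPV17L2, an inner-membrane protein needed for ribosome assembly, was at 24.7, 28.6 and 28.8 CPM and then 41.2, 40.5 and 36.6 CPM (0.53 ± 0.09, adjusted p = 0.0072). The RNA helicase DHX30 (0.44), C1QBP (0.39) and GTPBP6 (0.33) were called too, while the small-subunit GTPase ERAL1 was not (0.53 ± 0.18, adjusted p = 0.081).

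Of 14 translation factors, 3 (21.4%) were higher and none lower, with a median of 0.03. The share is not far from the 16.9% among genes at or above the level of the weakest member. TUFM, the elongation factor that brings tRNA to the ribosome, was at 251, 251 and 246 CPM and then 333, 326 and 347 CPM (log2 fold change 0.43 ± 0.04 SE, edgeR adjusted p = 6.33e-04). GFM1, the translocation factor, was at 71.8, 73.4 and 74.2 CPM and then 81.7, 93.2 and 97.4 CPM (0.31 ± 0.07, adjusted p = 0.0235). The count for this list was 1 without any 1 control and without shAURKB replicate 2 or 3, when GFM1 was not called (adjusted p = 0.0568 to 0.0717). OXA1L, which inserts the new chains into the inner membrane, was not called (-0.20 ± 0.07, adjusted p = 0.0812). It was called lower with upper-quartile scaling (adjusted p = 0.0385), as was C12orf65, a release-factor relative, without shAURKB replicate 1 (-0.52, adjusted p = 0.0494, against -0.26 ± 0.20 and 0.379 with all libraries).

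Of 7 genes for transcription of mitochondrial DNA and stability of its mRNA, 3 were higher and none lower. SLIRP, an RNA-binding partner of LRPPRC, was at 15.6, 16.3 and 14.3 CPM and then 24.7, 22.9 and 20.01 CPM (log2 fold change 0.55 ± 0.11 SE, edgeR adjusted p = 0.0114). POLRMT, the mitochondrial RNA polymerase, was at 93.1, 74.7 and 84.0 CPM and then 113, 115 and 120.2 CPM (0.47 ± 0.08, adjusted p = 0.0086). TFB2M, which helps the polymerase open the promoter, rose by 0.43 ± 0.08 (adjusted p = 0.0118). LRPPRC itself (0.09 ± 0.03, adjusted p = 0.103) and TFAM, which packages mitochondrial DNA (0.16 ± 0.07, adjusted p = 0.124), were not called.

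**Figure D5:**
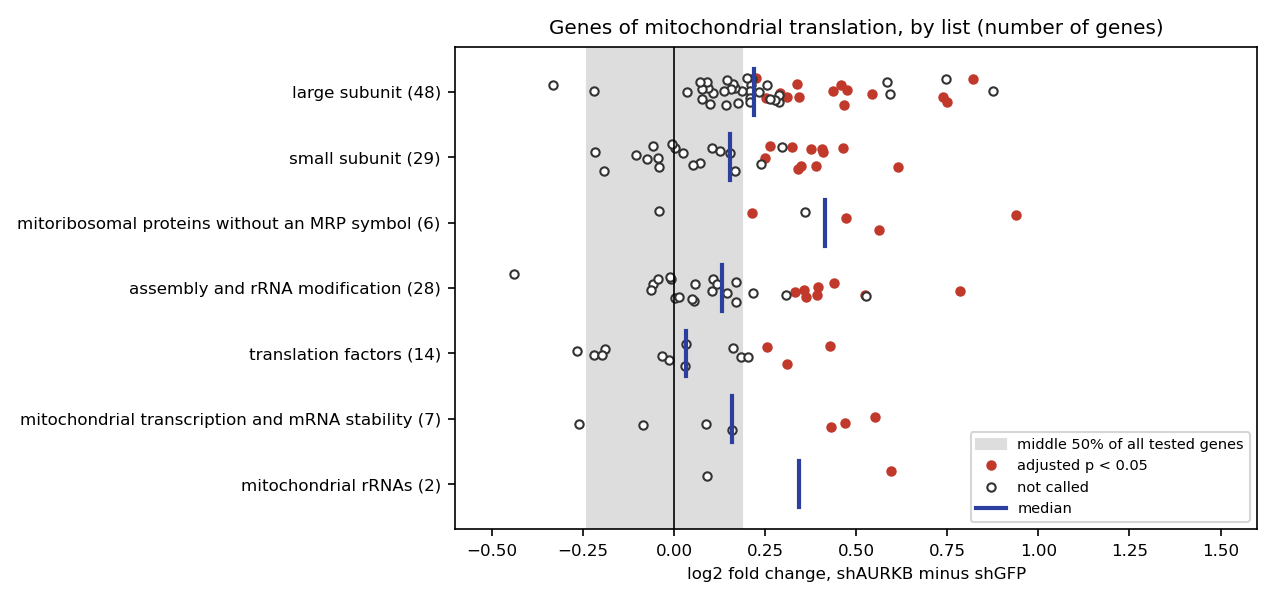
Log2 fold change, shAURKB minus shGFP, of each gene in the 2 subunits and in 5 lists of other genes of mitochondrial translation, with the number of genes in brackets. Filled points passed an adjusted p of 0.05, all to the right of 0, the vertical bars are list medians, and the grey band holds the middle 50% of all tested genes.

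Mitochondrial DNA encodes 2 ribosomal RNAs, of which 1 was called higher. MT-RNR1, the RNA of the small subunit, was at 970.4, 954 and 975 CPM in the controls and 1466, 1489 and 1429 CPM with AURKB shRNA (log2 fold change 0.60 ± 0.03 SE, edgeR adjusted p = 1.2e-04). MT-RNR2, the RNA of the large subunit, was at 4438, 4407 and 4578 CPM and then 4867, 4756 and 4662 CPM (0.09 ± 0.03, adjusted p = 0.057). Neither RNA had overlapping arms. MT-RNR2 passed without shGFP replicate 3 (adjusted p = 0.0435) and without the filter on low counts (0.0479). The difference between the 2 changes was not tested, and whether ribosomal RNA was removed from the libraries is not given in the sources used here.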

How the data were processed

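RNA of 6 CUTLL1 cultures was sequenced, 3 per arm. The sample titles gave each library's arm and replicate number. The authors deposited whole-number counts per gene. They also deposited FPKM of the same genes, which served only to describe levels per length, with no test. HISAT2 2.0.4, StringTie 1.3.0, edgeR and GRCh38 are named per the submitters' processing notes. What each did, whether strand was used and how multi-mapping reads were counted is not given in the sources used here.

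Low genes were removed by filterByExpr (at least 10 reads in enough libraries and 15 in all), leaving 14818 of 50868. Counts were scaled by TMM, and the arms were compared by the two-sided quasi-likelihood test of edgeR 4.0.16 (R 4.3.3) in a model of arm alone. P-values were adjusted by Benjamini-Hochberg over all genes tested, with a threshold of 0.05. All adjusted p-values are from this fit except where another alternative, a left-out library or the sum of MRPL12 with its overlapping locus is named. CPM are TMM-scaled, except marker sums, which use the total count, as does the share of reads taken by the members. The TMM factors were 1.017 to 1.020 in shGFP and 0.979 to 0.984 in shAURKB. One marker list is not reported here. The test was tried on simulated counts first. Libraries of the same arm differed beyond counting noise (chi-square divided by its degrees of freedom, 6.92 to 7.91). All 77 members matched GENCODE 29 by identifier, 76 at the identical position. The alternatives, 11 in all, were scaling by RLE or by the upper quartile, the DESeq2 1.42.0 test, no filter, the replicate number as a block, and each of the 6 libraries left out. The sum of MRPL12 with an overlapping locus was added after seeing the data.

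The members and lists were chosen with earlier results of these data known, so no p is given over a list. The genes named by rule were AURKB, the 5 called members with the largest change per subunit, the 2 members with the highest and the 1 with the lowest control FPKM per subunit, MRPL12, MRPS18A, MRPS18B, MRPS18C, MRPS30 and MRPS36, and the 2 called genes with the largest change per list. Other genes named were chosen after their values were seen.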

Additional observations from a re-analysis of the deposited data

How the results depend on the processing

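Each arm held 3 libraries. RLE scaling, DESeq2 and no filter kept the counts of called members, in all and per subunit, within 1.5 times of those reported, and without the filter both mitochondrial ribosomal RNAs were called. Upper-quartile scaling, which moved the median of all tested genes to -0.06, gave 14 members higher, 9 of the large and 5 of the small subunit, and medians of 0.17 and 0.10. With the replicate number as a block, 17 members were higher, 9 large and 8 small. Same-numbered libraries did not deviate together (r = -0.0887, -0.0313 and -0.0365). These values cannot tell whether such libraries were handled together. Leaving out 1 library at a time gave 14 to 20 members higher and 0 to 1 lower, 8 to 14 large-subunit genes higher and 0 to 1 lower, 5 to 8 small-subunit genes higher, and medians of 0.22 to 0.26 and 0.091 to 0.19. No called member changed sign, and 12 uncalled ones did. Among named members that were not called, MRPS18A came to -0.030 with upper-quartile scaling and MRPL49 to 0.021 with the replicate block. With 1 library left out, estimates ran from -0.023 to 0.11 for MRPS18A (below 0 without shGFP replicate 2 or 3), from -0.082 to 0.0051 for MRPS22 (above 0 without shAURKB replicate 1), from -0.41 to 0.13 for MRPS36 (above 0 without shGFP replicate 3 or shAURKB replicate 2 or 3) and from -0.56 to 0.61 for MRPL49 (above 0 without shGFP replicate 2). The cause of these shifts was not tested.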
